A study of Homo sapiens with 2 samples.

Results

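The microRNAs (miRNAs) miR-4251 to miR-4330 are a late block of miRBase, the registry that numbers miRNAs in the order in which they are submitted. They were chosen here by number, leaving out miR-4284, which gave 79 probes among 1273 probes for human miRNAs and 2661 probes in all. The probes were read on 2 one-colour arrays of H460, an established line from a large cell carcinoma of the human lung. One array held RNA of cells given sulforaphane for 48 hours and the other RNA of cells given vehicle for 48 hours. Sulforaphane is a plant isothiocyanate known to activate NRF2, a regulator of antioxidant genes. The labels used here give no dose for it. Both cultures were kept in the same serum-containing medium, and neither carried a label for any further treatment or genetic change. With 1 array per condition there was no spread between samples to set a difference against, no test could be made and no p-value is given, so all differences below describe these arrays. The carcinoma miRNA miR-21-5p was bright on both (122 with sulforaphane and 93.5 with vehicle, in the normalized units explained further on).

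A miRNA is a short RNA that guides an Argonaute protein to messenger RNAs, mainly by pairing through its seed, bases 2 to 8. Low numbers went largely to miRNAs that were abundant enough to be cloned early, and many of these are conserved between animals. The block from miR-4251 onwards stems largely from sequencing of Argonaute-bound RNA in human embryonic stem cells and neural precursors, and little is known of the function of most of its members. The comparison asks how a set of weakly supported miRNAs reads on an array beside miRNAs numbered below 200, of which there were 232 probes. These were taken by number and not by abundance. They include probes for both arms of a hairpin, such as miR-100-5p and miR-100-3p, and no let-7 probe.

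RefSeq (GRCh38.p14) listed a mature sequence for 72 of the 79 members. The 11 members that were above the detection floor on at least 1 array and had a sequence there are shown first because the results turn on them, from 5′ to 3′ with the seed in capitals. No 2 of the 11 shared a seed.

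miR-4301: uCCCACUAcuucacuuguga
miR-4317: aCAUUGCCagggaguuu
miR-4324: cCCUGAGAcccuaaccuuaa
miR-4279: cUCUCCUCccggcuuc
miR-4306: uGGAGAGAaaggcagua
miR-4290: uGCCCUCCuuucuucccuc
miR-4308: uCCCUGGAguuucuucuu
miR-4275: cCAAUUACcacuucuuu
miR-4299: gCUGGUGAcaugagaggc
miR-4321: uUAGCGGUggaccgcccugcg
miR-4268: gGCUCCUCcucucaggaugug

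The members were short. Their median mature length was 18 nucleotides, from 16 to 23, and 59 of the 72 (81.9%) were under 20 nucleotides, against a median of 22 and a range of 20 to 24 in the 202 miRNAs numbered below 200 with a sequence, none of which was under 20. Their median GC content was 58.4%, against 47.6% below number 200. RefSeq listed both arms of the hairpin for none of the 72 members, against 146 of the 202 (72.3%) below 200. By position, 45 of the 72 members (62.5%) lay within the span of a protein-coding gene, against 90 of the 202 (44.6%). The gene table gives no strand or exons, so sense and intronic position were not assigned.

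Several members repeated a stretch of an older miRNA. Of the 72, 6 (8.33%) shared an unbroken run of at least 13 bases with a miRNA numbered below 200, against 4 of 722 (0.554%) among the other human miRNAs numbered 200 or higher and 0 of 86 in miR-3115 to miR-3202, a similar block from sequencing. This property was looked at after the intensities had been seen. The 4 members whose older partner was above the floor on both arrays are shown with the partner, the shared run in capitals.

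miR-4324: CCCUGAGACCCUAACcuuaa
miR-125b-5p: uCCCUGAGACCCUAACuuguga
miR-4317: ACAUUGCCAGGGAguuu
miR-23b-3p: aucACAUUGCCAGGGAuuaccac
miR-4306: UGGAGAGAAAGGCAGUa
miR-185-5p: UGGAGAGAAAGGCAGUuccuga
miR-4291: UUCAGCAGGAACAGcu
miR-24-3p: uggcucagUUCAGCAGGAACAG

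miR-4306 matched miR-185-5p over its first 16 of 17 bases, and both have the same seed. miR-4324 matched miR-125b-5p, a regulator of differentiation and apoptosis, over 15 bases, but from base 2 of the older miRNA, so their seeds differ by a shift of 1 base. The 13 bases of miR-4317 lay within miR-23b-3p from its base 4, and the 14 bases of miR-4291 formed the 3′ end of miR-24-3p. The other 2 of the 6 were miR-4328, with 15 bases of miR-145-5p, and miR-4262, with 13 bases of miR-199a-5p. Each pair stems from separate places in GRCh38.p14. miR-4324 lies at chr19:49308807-49308826 on the minus strand within the span of SLC6A16, miR-4317 at chr18:6374399-6374415 on the minus strand within L3MBTL4, and miR-4306 at chr13:99643123-99643139 on the plus strand within CLYBL. miR-4301 lies at chr11:113450059-113450078 on the minus strand within the span of DRD2, the dopamine D2 receptor gene.

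Most members read under a floor set by the probes for viral miRNAs. A probe was called above the floor where its normalized intensity, the authors' background-subtracted value divided by 1 factor per array, exceeded the 95th percentile of that array's 143 probes for viral miRNAs. This floor was 5.52 on the sulforaphane array (684 background-subtracted units) and 6.44 on the vehicle array (718 units). On the sulforaphane array 11 of the 79 members (13.9%) were above it, against 84 of 232 (36.2%) below number 200 and 16.7% of all human miRNA probes. On the vehicle array the counts were 10 members (12.7%), 70 below number 200 (30.2%) and 14.3% of all human probes. On both arrays 8 members (10.1%) were above the floor, against 68 (29.3%) below number 200 and 13.2% of all human probes. A further 3 members passed on the sulforaphane array alone, where the background share was 3.46%, and 2 on the vehicle array alone, where it was 1.1%.

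The members thus passed less often than miRNAs numbered below 200, at a share near that of all human probes. The block miR-3115 to miR-3202 passed less often still by count, with 4 of 95 probes (4.21%) above the floor on both arrays. The viral probes pass at about 5% by the construction of the floor. Nothing was tested, and probes of 1 array are not replicates.

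The members were also dimmer at the median than the older miRNAs. The median normalized intensity of the members was 0.887 on the sulforaphane array and 0.812 on the vehicle array. In the set below number 200 it was 1.93 and 1.67 on these arrays, so the members' median was 0.459 times as high with sulforaphane and 0.485 times as high with vehicle. Against all other human miRNA probes, which include many further late entries, it was 1.12 times and 1.07 times as high. Of the members, 49 (62.0%) on the sulforaphane array and 43 (54.4%) on the vehicle array exceeded the median viral probe, against 184 (79.3%) and 168 (72.4%) below number 200. The brightest probe below number 200, miR-23b-3p, read 246 with sulforaphane and 172 with vehicle, followed by miR-29a-3p (214 and 160) and miR-22-3p (185 and 136). No member exceeded 100 on either array, against 7 (sulforaphane) and 3 (vehicle) probes below number 200 and 1 viral probe on each array, so such brightness is not limited to human miRNA probes. miR-4284, the number left out of the set, read 220 with sulforaphane and 165 with vehicle, above every member.

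**Figure D1:**
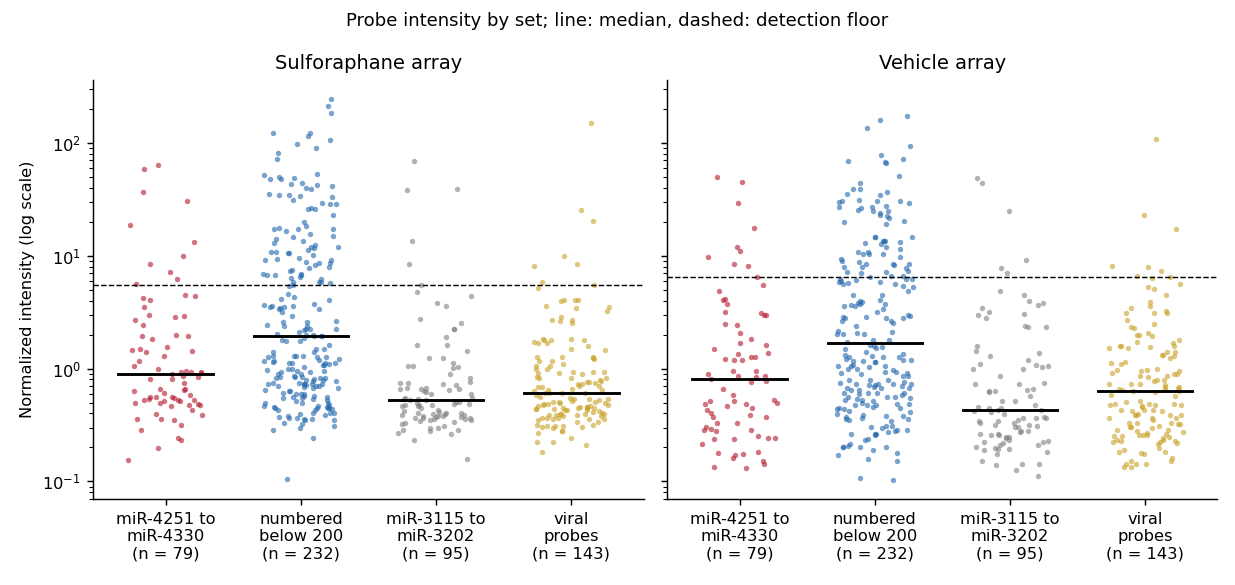
Normalized intensity on a log scale for each probe of miR-4251 to miR-4330, miRNAs numbered below 200, miR-3115 to miR-3202 and the viral probes, on the sulforaphane array (left) and the vehicle array (right), with each set's median as a line and the floor dashed. The members' medians lie at 0.887 and 0.812, under those of miRNAs numbered below 200 (1.93 and 1.67), and 11 and 10 members lie above the floor.

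Local background did not set the members apart. Its median over the members was 60.5 units on the sulforaphane array and 42 on the vehicle array, against 60.5 and 41 below number 200. Among the members it ranged from 49.5 to 88.5 units with sulforaphane and from 36.5 to 47 with vehicle. The order of the members was alike on both arrays, with Pearson's r = 0.955 and Spearman's rho = 0.943 between log2 intensities over the 79 probes. The probes share both arrays, so this is a description only, as is r = 0.976 for the 232 probes below number 200.

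The brightest members lay well above the floor, but within the range of the viral probes, the brightest of which read 151 with sulforaphane and 108 with vehicle. miR-4301 read 63.5 with sulforaphane and 49.9 with vehicle and ranked 24th and 23rd among all human miRNA probes. miR-4286 read 58.8 with sulforaphane and 44.8 with vehicle. miR-4317, the member that shares 13 bases with miR-23b-3p, read 36.7 with sulforaphane and 29.4 with vehicle. These 3 probes were the only members that stayed above the floor on both arrays when it was set at the 99th percentile of the viral probes. Probes differ in affinity, so their brightness does not order the miRNAs by abundance.

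The next members were dimmer. miR-4324 read 30.6 with sulforaphane and 11.1 with vehicle. miR-4279 read 18.6 with sulforaphane and 17.6 with vehicle. miR-4306, which shares its seed and 16 bases with miR-185-5p, read 13.1 with sulforaphane and 12.0 with vehicle. Of these 3 probes, 1 was far brighter on the sulforaphane array and the other 2 read nearly alike on both.

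miR-4290 read 10.0 with sulforaphane and 9.83 with vehicle. The last of the 8, miR-4299, read 5.57 with sulforaphane and 6.47 with vehicle, which is within 0.1 of the floor on each array. Its call therefore rests on the placing of the floor.

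**Figure D2:**
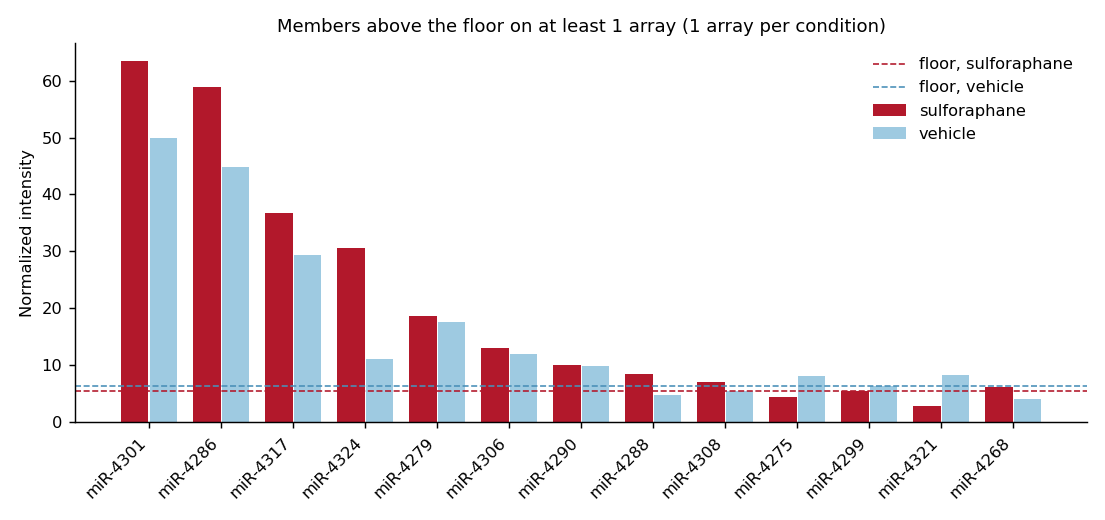
Normalized intensity of the 13 members above the floor on at least 1 array, with the sulforaphane array (dark) left of the vehicle array (pale) and the floor of each array dashed. miR-4301 and miR-4286 are the brightest, and the pair of bars for miR-4324 differs most among the 8 members above the floor on both arrays (30.6 and 11.1).

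Among the 8 members above the floor on both arrays, 1 differed by at least 2-fold, miR-4324, which was 2.76-fold above vehicle in the sulforaphane sample (log2 ratio 1.47). Over all 168 human miRNA probes above the floor on both arrays, 3.57% were at least 2-fold higher, 1.19% at least 2-fold lower and 4.76% either. This was the highest ratio of the 168. miR-125b-5p, which shares 15 bases with it, read 34.5 with sulforaphane and 30.6 with vehicle (log2 ratio 0.17), and miR-125a-5p, which shares 12, read 31.3 and 26.4 (0.25). The member miR-4329, which shares 12 bases with miR-4324 and 12 with miR-125b-5p, was under both floors (4.19 and 3.14, log2 ratio 0.41). Binding of miR-125b-5p or miR-125a-5p to the probe for miR-4324 was not tested. On the scale of the spike-in probes the log2 ratio of miR-4324 was 0.76, under 2-fold. It stayed above 0 under each of the 6 alternatives tried, which were 5 other scalings and the addition of the floor to each value. No normalization and scaling by spike-in probes or detected miRNAs shift every ratio alike, so they say nothing of this probe in particular. Under the others the ratio was 1.19 (quantile), 1.10 (cyclic loess) and 1.05 (floor added).

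The other 7 members differed little. Their log2 ratios were 0.39 for miR-4286, 0.35 for miR-4301, 0.32 for miR-4317, 0.13 for miR-4306, 0.08 for miR-4279, 0.03 for miR-4290 and -0.22 for miR-4299. The median of the 8 was 0.22, against 0.44 for the 68 probes below number 200 and 0.38 for all 168, and 6 of the 8 lay below the median of the 168. The sign of a small ratio here depends on the scale. The median of the 168 probes itself ran from -0.32 (spike-in scaling) to 0.54 (no normalization). Scaling by spike-in probes or detected miRNAs and no normalization shift every ratio alike, so the order of both medians was fixed there. Where it could change, the median of the 8 members was again the lower. It was -0.09 against 0.03 (quantile), -0.14 against -0.002 (cyclic loess) and 0.12 against 0.22 (floor added). Over the same 6 alternatives the ratio was below 0 under 2 for miR-4286, 3 for miR-4301 and miR-4317, 4 for miR-4306 and miR-4279, and 5 for miR-4290. The ratio of miR-4299 was below 0 under all 6.

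The pairs that share sequence can be set side by side. miR-4306 had a log2 ratio of 0.13, against 0.48 for miR-185-5p, which was dimmer (10.1 with sulforaphane and 7.19 with vehicle). miR-4317 had 0.32, against 0.52 for miR-23b-3p and 0.66 for miR-23a-3p, which holds the same 13 bases and read 123 and 77.7. A further carrier of 10 of these bases, miR-23c, lay under both floors (1.30 and 1.61). miR-4291 was under the floor although its partner was bright: it read 3.49 with sulforaphane and 4.05 with vehicle, against 97.6 and 67.3 for miR-24-3p. miR-4328 read 0.637 and 0.448 and its partner miR-145-5p, a miRNA of smooth muscle and mesenchymal cells, 0.460 and 0.202. Of the 11 members above the floor on at least 1 array with a sequence, 3 had a run of at least 13 bases shared with a miRNA numbered below 200, and of the 61 under the floor on both arrays, 3 did. Whether the probes respond to the older miRNAs was not tested.

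Members above the floor on 1 array have only a bound, computed as the value there divided by the opposite array's floor. Each bound holds on the deposited scale only. None was computed on another scale, where the direction of so small a fold can turn. miR-4288 read 8.40 with sulforaphane and 4.84 with vehicle and was at least 1.31-fold higher. miR-4308 read 7.11 with sulforaphane and 5.55 with vehicle and was at least 1.11-fold higher. miR-4268 read 6.22 with sulforaphane and 4.11 with vehicle. Its value with sulforaphane was under the vehicle floor, so no fold is given.

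In the other direction, miR-4321 read 2.89 with sulforaphane and 8.39 with vehicle and was at least 1.52-fold lower. Its measured log2 ratio of -1.54 was the lowest of the 79. miR-4275 read 4.40 with sulforaphane and 8.13 with vehicle and was at least 1.47-fold lower. On the array where each passed, these 5 probes read between 771.5 and 1042 background-subtracted units, close to the floors of 684 and 718. Just under the floor of the sulforaphane array were miR-4297 (4.49), miR-4275 (4.40) and miR-4329 (4.19), and just under that of the vehicle array miR-4308, miR-4288 and miR-4268.

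**Figure D3:**
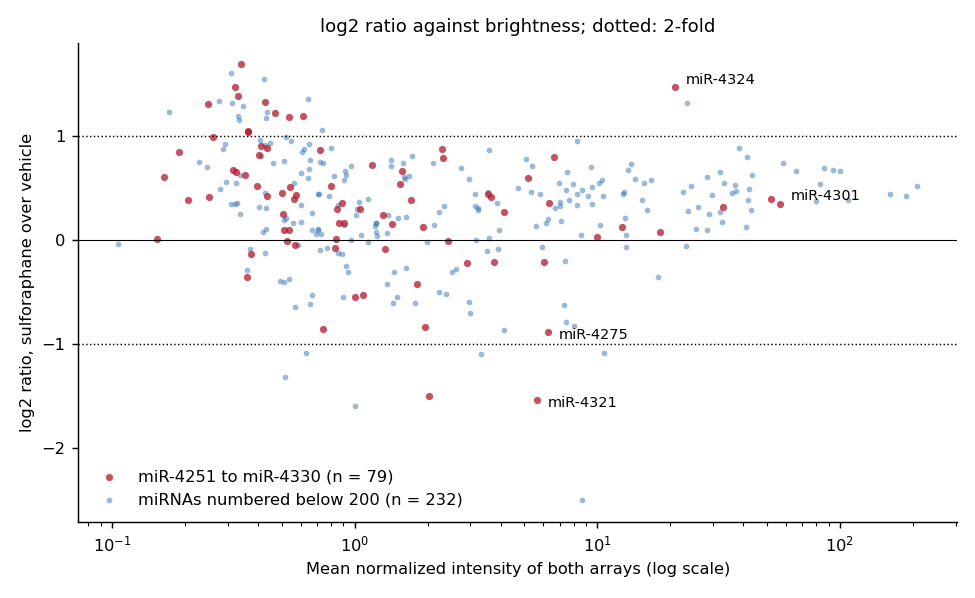
log2 ratio of each probe, sulforaphane over vehicle, against its mean normalized intensity on a log scale, for the 79 members and for the 232 miRNAs numbered below 200, with dotted lines at 2-fold. miR-4324 stands at 1.47 among the brighter probes and miR-4321 at -1.54 near the floor, and many ratios beyond 2-fold lie among the dimmest probes. The lowest point, at -2.51, is miR-138-2-3p, numbered below 200 and above the floor with vehicle alone.

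The log2 ratios of the members spread slightly more than those of miRNAs numbered below 200. Over all members the SD between probes was 0.62 (n = 79), against 0.54 (n = 232), and the medians were 0.38 and 0.36. The SD was larger for all human miRNA probes (0.68), for miR-3115 to miR-3202 (0.89) and for the viral probes (0.72). A wide spread was thus not particular to the members. With the floor added to each value, which damps dim probes, the order of members and older miRNAs turned, with SDs of 0.21 and 0.27. Among probes above the floor on both arrays the SD was 0.51 for the 8 members and 0.37 for the 68 below number 200. Without miR-4324 it was 0.22 for the other 7 members, so that 1 probe set the difference. From the median absolute deviation it was 0.23 in both sets. The 41 spike-in probes above the floor, which hold no RNA of the cells, had an SD of 0.20.

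The spread did not fall steadily with brightness. In the dimmest band, with a mean normalized intensity under 0.5, the SD was 0.51 for the 24 members there, 0.52 for the 37 probes below number 200 and 0.49 for the 59 viral probes. That band held 30.4% of the members and 15.9% of the probes below number 200. From 0.5 to 1 the SD was 0.46 for 20 members and 0.61 for 54 probes below number 200, and from 1 to 2 it was 0.50 for 13 members and 0.41 for 29 probes. From 2 to 6 it was 0.83 for 11 members and 0.50 for 33 probes, and miR-4321 and miR-4251 (log2 ratio -1.50) lay in this band. All 158 other human miRNA probes of this band also had an SD of 0.83, and the 12 of miR-3115 to miR-3202 had 1.38. At 6 and over it was 0.59 for 11 members and 0.50 for 79 probes, which included miR-138-2-3p at -2.51, named after its values had been seen. Beside the probes below number 200, the members were thus the narrower set in 2 of the 5 bands and the wider in 3. None of these differences was tested.

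**Figure D4:**
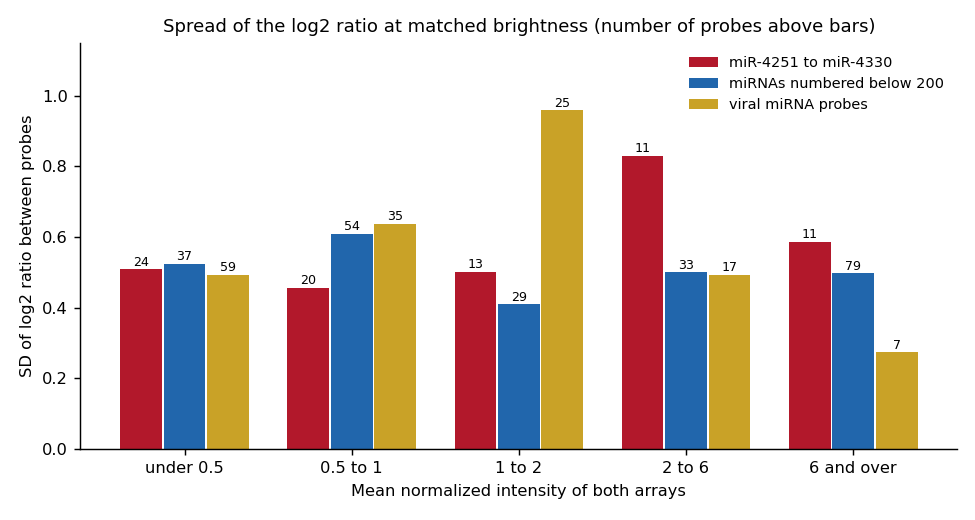
SD between probes of the log2 ratio, sulforaphane over vehicle, in 5 bands of mean normalized intensity, for the members, miRNAs numbered below 200 and the viral probes, with the number of probes above each bar. In the dimmest band the 3 sets lie at 0.51, 0.52 and 0.49, and in the band from 2 to 6 the members stand higher (0.83). All other human miRNA probes, which are not drawn, also had an SD of 0.83 in that band.

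Large ratios were common among dim members and among other dim probes. Of the 66 members under the floor on both arrays, 10 measured 2-fold or more higher with sulforaphane and 1 (miR-4251) 2-fold or more lower. Of the 1047 human miRNA probes under both floors, 11.7% were higher by this rule, 4.78% lower and 16.5% either. The largest, miR-4294, named after its values had been seen, measured a log2 ratio of 1.69 from 64.5 background-subtracted units with sulforaphane and 18 with vehicle. Its foreground was 123 and 64.5 units over a local background of 58.5 and 46.5. A change in these miRNAs was not detectable at such signals. In the dimmest band the median log2 ratio was 0.83 for the members, 0.70 for the probes below number 200 and 0.58 for the viral probes, so dim probes for viral miRNAs also had a median above 0.

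Among the members, intensity was negatively correlated with G content and positively with C content, across probes that also differ in affinity. Over the 72 members with a sequence, Spearman's rho between intensity and G content was -0.39 on the sulforaphane array and -0.40 on the vehicle array, that with C content 0.24 and 0.22, that with GC content -0.26 and -0.30, and that with length -0.01 and 0.04. For the 202 older miRNAs the correlation with G content was 0.03 and 0.06. The 11 members above the floor on at least 1 array had a median G content of 16.7%, against 31.2% in the 61 under it on both, and a median C content of 33.3%, against 25%. These are descriptions across probes that share both arrays, without a test, and the members above the floor are few.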

How the data were processed

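Total RNA of H460 cells was labelled with Hy3 and hybridised to miRCURY LNA arrays, per the labels' protocols, with 1 array per group. Per the file headers, the authors deposited the foreground intensity and the background-subtracted intensity of each probe, a normalized value and a fold change. The normalized value is a ratio: it equalled the background-subtracted intensity divided by 124 on the sulforaphane array and by 111.5 on the vehicle array for all 2661 probes. The deposited series values matched it for all 2661 to within 4.89e-08. The labels and headers read for this work name no scanner, software or background method. The number of arrays limits the precision.

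From these values the log2 ratio, sulforaphane over vehicle, was computed with no value added. Detection used the 95th percentile of the viral probes, and size a 2-fold rule. Python 3.11.15 (numpy 2.4.6, pandas 2.3.3, scipy 1.17.1) was used, with limma 3.58.1 in R 4.3.3 for quantile and cyclic loess scaling. The computation of shares and spreads was tested on simulated data, with a floor placed between separate bright and dim classes. That did not test calls near the viral floor. The 1150 unnamed probes entered the scalings but no set. Mature sequences came from RefSeq (GRCh38.p14), matched by name. The members, lists and rules were chosen with earlier results of these data known. Named were members above the floor, the brightest, those next to the floor, those sharing a seed, and for numbers below 200 the 3 brightest with the highest and the lowest ratio. Shared runs were examined, and 1 alternative floor added, after the data had been seen. Alternatives covered the floor, background subtraction, scaling, the measure of spread and probes naming several miRNAs.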

Additional observations from a re-analysis of the deposited data

How the results depend on the processing

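No paired analysis was possible because each group held 1 array. The number of detected members depended on the floor. At the 99th percentile of viral probes 4 members were above it on the sulforaphane array, 3 on the vehicle array and 3 on both, against 32 below number 200 on both. At the 90th percentile 13 members were above it on both. With the brightest of 7 negative control probes as the floor, an alternative added after the data had been seen, the counts were 27, 21 and 19, against 107. Under each floor the members' share on both arrays was lower than that of miRNAs numbered below 200 (3.80% against 13.8%, 16.5% against 37.9%, and 24.1% against 46.1%) and near that of all human probes (5.26%, 18.7% and 25.8%). The members' median was 1.12 (sulforaphane) and 1.07 (vehicle) times that of all other human probes. With the floor added to each value, the SD of the log2 ratio was 0.21 for the members and 0.27 below number 200, so their order turned. With spike-in scaling 0 members differed by 2-fold. The cause of these shifts was not tested. In the other 39 of 53 comparisons of a result with an alternative, the value moved by no more than 1.5 times. Among the log2 ratios of 14 named probes, 58 values under another scaling or with the floor added differed from the reported one by more than the SD of the spike-in probes (0.20) and 26 by less. Under the scalings that shift every ratio alike, each probe moves by the same amount, so part of these counts was fixed in advance. Dim signals, most of them under the floor, limit what can be said of most members.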

Other observations

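Of the 72 members with a sequence, 4 carry the seed of at least 1 of the 202 miRNAs numbered below 200 with a sequence. The seeds of members without a listed sequence were not known here. Of these 4, 1 was above the floor on both arrays (miR-4306) and the other 3 were under it on both, where 10.1% of all members and 13.2% of all human probes were above both floors. Probes differ in affinity, so the values below do not order the miRNAs by level. miR-4319 has the seed of the miR-125 family and read 0.286 with sulforaphane and 0.215 with vehicle, against 34.5 and 30.6 for miR-125b-5p and 31.3 and 26.4 for miR-125a-5p. miR-4295 has the seed of the miR-130 family and read 0.581 with sulforaphane and 0.426 with vehicle, while miR-130b-3p read 14.9 and 10.8. miR-4262 has the seed of the miR-181 family, regulators of lymphocyte development, and read 1.54 with sulforaphane and 2.07 with vehicle, against 29.3 and 27.3 for miR-181a-5p. miR-181c-5p, of the same seed, was itself under the floor (0.448 and 0.359). miR-4265, miR-4296 and miR-4322 shared a seed with one another, and all 3 were under the floor on both arrays, with log2 ratios of 1.18, 1.22 and 0.99.

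Lists of marker miRNAs of other cell types are given as counts, beside 82.2% of all human probes under both floors. Of 7 embryonic stem cell miRNAs 1 was above it on both arrays, miR-302a-3p, at 19.9 with sulforaphane and 15.6 with vehicle. Of 3 neuronal miRNAs 2 were above it with sulforaphane and 0 with vehicle, but these 2 lay near floors that differ (5.515 with sulforaphane and 6.436 with vehicle). miR-9-5p read 6.46 with sulforaphane and 5.78 with vehicle, and miR-128 read 5.524 and 3.910. The other neuronal miRNA, miR-124-3p, read 2.12 with sulforaphane and 4.52 with vehicle. Of 6 blood and immune miRNAs none was above the floor on either array. Of 4 mesenchymal and endothelial miRNAs miR-126-3p was above it with sulforaphane alone (8.69 and 6.24), and of 4 muscle miRNAs miR-206 with vehicle alone (1.80 and 6.61). The liver miRNA miR-122-5p was under it (1.14 and 1.74). In the set below number 200 the highest ratio above the floor was that of miR-32-3p (log2 ratio 1.32) and the lowest that of miR-122-3p (-1.09). As 1 array was made per condition, none of these values has a replicate.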
